A study of Homo sapiens with 21 samples.

Results

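The endoplasmic reticulum (ER) quality control genes described here are 36 genes for ER chaperones, the unfolded protein response and ER-associated degradation (ERAD). They were found by gene symbol among the 62656 genes of the deposited count table. All 36 were present and all passed the filter on low counts. The cells were SH-SY5Y, a human neuroblastoma line with a wild-type genotype per the labels, driven towards a neuron-like state over 11 days. In 6 groups the cells then received one per- or polyfluoroalkyl substance (PFAS) each, at 30 µM for 24 h in medium with 1% methanol. PFOA and PFDA are perfluoroalkyl carboxylic acids of shorter and longer chain, PFOS and PFDS are perfluoroalkyl sulfonic acids of shorter and longer chain, and 8:2 FTS and 8:2 FTOH are a fluorotelomer sulfonic acid and a fluorotelomer alcohol. A control group made up the 7 groups, with 3 libraries each and 21 in all. Whether the controls contained methanol is not stated in the sources used here, so a difference from control due to a compound and one due to the solvent cannot be told apart. No label says that the 3 libraries of a group came from separate cultures, so the p-values reflect only how these libraries vary, which may be technical.

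Secretory and membrane proteins fold in the ER with the help of chaperones of the Hsp70 and Hsp90 families, of lectin chaperones that read their sugar chains, and of enzymes that form and rearrange disulfide bonds. Proteins that fail to fold are handed to ERAD, which draws them back to the cytosol for the proteasome. When unfolded proteins build up, 3 sensors in the ER membrane start the unfolded protein response. IRE1 (gene ERN1) splices the mRNA of the transcription factor XBP1, ATF6 is cut in the Golgi by the proteases encoded by MBTPS1 and MBTPS2 and moves to the nucleus, and PERK (gene EIF2AK3) phosphorylates eIF2α, which slows translation and favours the factor ATF4. ATF6 is best known for raising chaperone genes, spliced XBP1 for raising ERAD and transport genes, and PERK for raising genes of amino acid supply and stress. Counts per gene do not separate spliced from unspliced XBP1, and the cleavage of ATF6 and the activity of PERK do not show in these data.

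ATF6 and its partners bind the ER stress response element, ERSE (CCAAT, any 9 bases, CCACG), or the shorter ERSE-II (ATTGG, any base, CCACG). The bases upstream of the start site are shown for 5 genes that the results return to, 4 with such an element and 1, MANF, without. Sequences are from RefSeq on GRCh38.p14, 250 bases each, and run 5′ to 3′ in the direction of transcription. Capitals mark the fixed bases of an ERSE or ERSE-II match, and an element read on the opposite strand appears as its reverse complement.
HSPA5 (chr9:125241344-125241593, minus strand): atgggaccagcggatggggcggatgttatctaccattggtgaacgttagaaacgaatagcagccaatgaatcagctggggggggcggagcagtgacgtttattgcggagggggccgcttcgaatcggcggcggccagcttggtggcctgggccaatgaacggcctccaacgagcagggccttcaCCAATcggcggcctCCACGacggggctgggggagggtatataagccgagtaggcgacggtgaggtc
HSP90B1 (chr12:103930160-103930409, plus strand): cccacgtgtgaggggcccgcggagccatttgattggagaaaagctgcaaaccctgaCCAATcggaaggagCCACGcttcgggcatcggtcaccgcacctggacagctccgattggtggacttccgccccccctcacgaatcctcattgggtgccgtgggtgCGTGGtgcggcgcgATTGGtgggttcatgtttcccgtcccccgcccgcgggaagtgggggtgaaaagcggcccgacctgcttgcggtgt
HYOU1 (chr11:119057206-119057455, minus strand): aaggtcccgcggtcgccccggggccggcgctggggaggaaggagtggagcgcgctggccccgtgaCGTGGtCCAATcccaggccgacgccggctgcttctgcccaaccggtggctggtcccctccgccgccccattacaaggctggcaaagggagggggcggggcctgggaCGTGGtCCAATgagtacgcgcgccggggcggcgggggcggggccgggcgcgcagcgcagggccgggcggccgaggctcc
HERPUD1 (chr16:56931892-56932141, plus strand): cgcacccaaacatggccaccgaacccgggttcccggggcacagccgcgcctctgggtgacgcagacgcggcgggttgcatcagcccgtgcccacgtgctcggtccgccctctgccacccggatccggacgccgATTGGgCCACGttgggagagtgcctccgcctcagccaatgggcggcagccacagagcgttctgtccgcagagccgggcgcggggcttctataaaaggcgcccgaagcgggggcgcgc
MANF (chr3:51385041-51385290, plus strand): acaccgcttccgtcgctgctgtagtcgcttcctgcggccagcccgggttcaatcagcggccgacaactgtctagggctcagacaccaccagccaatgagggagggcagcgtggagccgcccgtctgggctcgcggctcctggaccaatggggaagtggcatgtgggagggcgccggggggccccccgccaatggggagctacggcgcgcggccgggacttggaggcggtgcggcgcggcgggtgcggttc

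A window of 300 bases (250 upstream and 50 from the start site on) was listed for 32 of the 36 genes (not for PDIA3, DERL1, DERL3 and SEC24D), and both strands were searched. ERSE was found in 7 of these windows (CALR, CANX, CRELD2, ERO1B, HSP90B1, HSPA5 and XBP1), against 0.0806% of the 27305 windows in the table. ERSE-II was found in 3 (HERPUD1, HYOU1 and SDF2L1), against 0.0549% of all windows. HSPA5 held its match 66 bases before the start site, HSP90B1 held matches at 194 and 89 bases, HYOU1 held ERSE-II at 185 and 79 bases, and HERPUD1 held ERSE-II at 117 bases. The UPRE motif TGACGTGG, which spliced XBP1 is known to bind, was found in HYOU1 alone among the 32 (0.795% of all windows), where it overlapped the first ERSE-II match. The amino acid response element (TGATG, any base, AAT) was found in none of the 32, against 1.02% of all windows. A match is a description of the letters in this window only.

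Total counts per library ran from 7680024 to 30429746 with a median of 14633793, and the 3 control libraries, at 22179910 to 24905803, all lay above that median. The mitochondrial share of counts was 6.33% for Control replicate 3 and 6.11% for replicate 3 of 8:2 FTOH, against 3.37% to 5.4% in the other libraries. Levels below are in CPM, read counts scaled to library size with TMM factors. Of 13 neuronal markers, checked against the labelled cell type, MAP1B was at 5404 CPM, STMN2 at 1189 CPM and DBH at 1146 CPM in control. Lower were TUBB3 at 34.8 CPM and TH, a defining enzyme of catecholamine synthesis, at 0.592 CPM. Of 10 markers of the substrate-adherent cell type of neuroblastoma lines, FN1 was highest in control at 43.9 CPM. LUM was at 19.2 and CD44 at 7.33 CPM, while PRRX1 was at 0 and YAP1 at 0.115 CPM. The 10 together summed to 78.4 to 84.9 CPM in control and 66.2 to 82.7 CPM in the compound groups. The 5 glial markers summed to 7.19 to 9.47 CPM in control and 6.64 to 10.5 CPM with the compounds. The proliferation gene MKI67 was at 856 CPM in control.

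In control cells the most abundant of the 36 genes per kilobase of exonic length were chaperones and folding enzymes. CALR, the calcium-binding lectin chaperone calreticulin, stood highest at 127 CPM per kilobase, followed by the disulfide isomerase PDIA4 at 73.1, the membrane lectin chaperone CANX at 50.5 and the ER Hsp70 HSPA5, also known as BiP, at 47.9. Of the sensors, ATF6 was at 6.99, EIF2AK3 at 1.86 and ERN1 at 1.61 CPM per kilobase, while XBP1 was at 27.1. Not all chaperones stood above the sensors, since DNAJB11 was at 4.58 and CRELD2 at 4.36 CPM per kilobase. The length takes in every annotated exon of a gene, whether or not these cells use it. It was 9385 bases for DNAJB11, 19153 for ERN1 and 20691 for EIF2AK3. The order of genes per kilobase thus depends on the annotation too. Of the paired ER oxidases, ERO1A was at 10.1 and ERO1B at 1.7 CPM per kilobase. DERL3, one of 3 derlins that help extract ERAD substrates, was lowest at 0.162 CPM per kilobase and had 7 to 29 reads per library. Of its exonic length, 77% overlaps the expressed gene SMARCB1, so its values are uncertain.

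**Figure D1:**
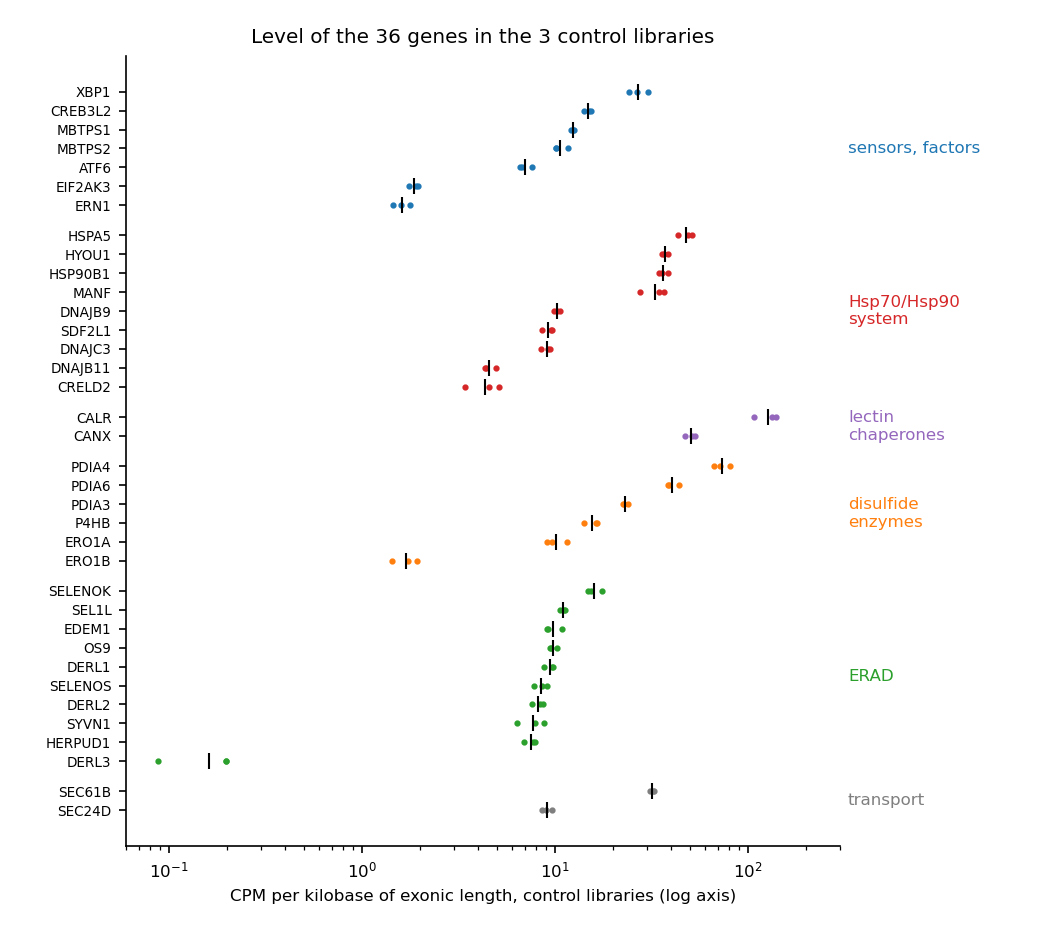
Level of each of the 36 genes in the 3 control libraries, in CPM per kilobase of exonic length on a log axis, grouped by role. Dots are libraries and the black bar is their mean, which is highest for CALR at 127 and lowest for DERL3 at 0.162.

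With single compounds, no gene of the 36 passed an adjusted p of 0.05 by edgeR's quasi-likelihood test with Benjamini-Hochberg adjustment over all genes tested. Few genes of any kind did: the share called was 0.0322% of 24879 genes with PFOA, 0.0241% with PFOS, 0.00804% with PFDA, 0.0241% with PFDS, 0.0844% with 8:2 FTS and 0.0322% with 8:2 FTOH. The nearest was MANF with 8:2 FTOH (adjusted p = 0.0584). DESeq2 called 1 of the 36 with PFOS and with PFDA (MANF in both), 2 with 8:2 FTOH (MANF and PDIA3), and 0 with PFOA, PFDS and 8:2 FTS. DESeq2 called 0.301% of all genes with PFOA, 0.0683% with PFOS, 0.0482% with PFDA, 0.121% with PFDS, 0.201% with 8:2 FTS and 0.237% with 8:2 FTOH. With an unadjusted p under 0.05 the genes lower than control numbered 9 with PFOA, 8 with PFOS, 9 with PFDA, 2 with PFDS, 4 with 8:2 FTS and 9 with 8:2 FTOH, of 36. The shares of all genes tested that were lower at that level were 5.6%, 3.57%, 4.39%, 3.03%, 4.2% and 4.28% in the same order. In the other direction the count was 1 with PFOS and 1 with 8:2 FTOH, ERN1 in both, and 0 with the other compounds. Of all genes tested 4.46%, 3.26%, 4.04%, 2.56%, 3.57% and 3.55% were higher at that level, so 1 of 36 is near the background.

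When the 6 compound groups were averaged and set against control, 2 of the 36 genes passed, MANF and PDIA3, and both were lower. In that comparison 0.35% of all genes tested were called. DESeq2 called the same 2 of the 36 genes, and 0.788% of all genes. With an unadjusted p under 0.05, 11 of the 36 were lower and 1 was higher, against 5.67% and 4.3% of all genes. The log2 fold change was negative in 25 of the 36, against 49.1% of all genes. MANF (chr3:51385291-51389397 on hg38) encodes a small protein of the ER that is also secreted, binds HSPA5 and is known as a survival factor for neurons. PDIA3 (chr15:43746394-43773279) encodes a disulfide isomerase, ERp57, that works with calreticulin and calnexin on glycoproteins. All 6 comparisons with control use the same 3 control libraries, so they are not independent of each other.

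MANF stood at 78.3, 74.1 and 59.1 CPM in the 3 control libraries. It was at 51.9, 56.1 and 57.2 CPM with PFOA, at 45.2, 49.0 and 52.9 with PFOS, and at 50.9, 50.9 and 44.8 with PFDA. With PFDS it was at 57.6, 47.6 and 57.4 CPM, with 8:2 FTS at 50.2, 43.4 and 62.7, and with 8:2 FTOH at 53.8, 48.1 and 37.7. Thus 17 of 18 compound libraries lay below the lowest control, the exception being 8:2 FTS replicate 3, and Control replicate 3 lay well below the other controls. For the 6 compounds together MANF was at 0.722 of the control level, or -0.47 on the log2 scale (SE 0.09, adjusted p = 0.00978 by edgeR). By compound the log2 fold changes were -0.36 with PFOA, -0.53 with PFOS, -0.53 with PFDA, -0.38 with PFDS, -0.44 with 8:2 FTS and -0.59 with 8:2 FTOH, each with an SE of 0.12.

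PDIA3 was at 270, 282 and 265 CPM in control. It was at 213, 236 and 215 CPM with PFOA, at 202, 217 and 227 with PFOS, and at 219, 206 and 217 with PFDA. The PFDS libraries were at 245, 205 and 257 CPM, those of 8:2 FTS at 215, 194 and 258, and those of 8:2 FTOH at 225, 212 and 207. All 18 compound libraries lay below all 3 controls, which was so for 0.342% of genes tested. Of the 36 genes 0 lay wholly above, against 0.129% of genes tested. The log2 fold change for the 6 compounds together was -0.30 (SE 0.06, adjusted p = 0.0117), and by compound it ran from -0.35 with PFDA to -0.21 with PFDS. Of its exonic length, 5.3% overlaps ELL3, which was at 0.996 CPM in control.

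Both calls depended on which control libraries were used. Without Control replicate 1 the adjusted p of the comparison of all 6 compounds was 0.204 for MANF and 0.121 for PDIA3. Without Control replicate 2 it was 0.307 and 0.332, and in both cases 0 of the 36 genes were called. The share of all genes called in these fits is not given here. Whether calls also fell among all genes thus cannot be read from these counts. The log2 fold changes moved less, to -0.38 and -0.43 for MANF and to -0.31 and -0.28 for PDIA3. Without Control replicate 3 both were called (adjusted p = 0.00076 and 0.0193), and without Control replicate 3 and 8:2 FTOH replicate 3 together the adjusted p was 0.000168 and 0.0222.

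The Hsp70 and Hsp90 system, to which MANF belongs, had medians below control, and no other gene of it passed the test. Of its 9 genes the median log2 fold change was -0.23 with PFOA, -0.26 with PFOS, -0.21 with PFDA, -0.10 with PFDS, -0.20 with 8:2 FTS and -0.29 with 8:2 FTOH. Over all genes tested the median was 0.00 or 0.01 in each comparison. The summed level of the 9 genes was 1265 CPM ± 65.9 in control (SD, n = 3) and between 1031 CPM ± 47.4 with 8:2 FTOH and 1149 CPM ± 100 with PFDS.

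HSPA5, the central ER chaperone that also holds the 3 sensors inactive, was at 318, 335 and 285 CPM in control. It was at 230, 272 and 251 CPM with PFOA, at 211, 256 and 263 with PFOS, and at 236, 236 and 238 with PFDA. Levels with PFDS were 316, 244 and 282 CPM, with 8:2 FTS 243, 204 and 356, and with 8:2 FTOH 267, 246 and 224. The PFOA, PFOS, PFDA and 8:2 FTOH libraries all lay below the 3 controls, while PFDS and 8:2 FTS overlapped them. For the 6 compounds together the log2 fold change was -0.30 (SE 0.12, adjusted p = 0.377). The library 8:2 FTS replicate 3 held the highest level of all 21, and without it the same comparison called HSPA5 (log2 fold change -0.35, SE 0.07, adjusted p = 0.0099) and HSP90B1 (-0.23, SE 0.06, adjusted p = 0.0486) beside MANF and PDIA3. That library was the highest of its group in 31 of the 36 genes, so leaving it out lowers the 8:2 FTS mean of those genes. The share of all genes called without it is not given here.

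HSP90B1, the ER Hsp90 known as GRP94, was at 454, 505 and 471 CPM in control. It was at 443, 461 and 414 CPM with PFOA, at 387, 403 and 403 with PFOS, and at 386, 454 and 394 with PFDA. With PFDS it was at 448, 389 and 437 CPM, with 8:2 FTS at 393, 364 and 493, and with 8:2 FTOH at 404, 381 and 389. The lowest library was 8:2 FTS replicate 2, and the lowest group means were those of PFOS, at 398 CPM, and 8:2 FTOH, at 391 CPM, where the log2 fold changes were -0.26 (SE 0.08) and -0.29 (SE 0.08). In the comparison of all 6 compounds it was at -0.21 (SE 0.06, adjusted p = 0.16), and 16 of 18 compound libraries lay below the lowest control.

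DNAJB11, or ERdj3, a J-protein that passes clients to HSPA5, was at 41.4, 46.7 and 40.8 CPM in control. It was at 40.1, 36.7 and 33.9 CPM with PFOA, at 35.6, 32.9 and 38.1 with PFOS, and at 35.2, 40.8 and 35 with PFDA. The PFDS libraries were at 40.4, 36 and 38.4 CPM, those of 8:2 FTS at 34.8, 34.7 and 40, and those of 8:2 FTOH at 33.8, 33.9 and 36.3. As with PDIA3, all 18 compound libraries lay below the 3 controls, by a margin that rounding hides for PFDA replicate 2. The log2 fold change for the 6 compounds was -0.24 (SE 0.07), with an adjusted p of 0.134.

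HYOU1, or GRP170, which exchanges nucleotide on HSPA5, was at 252, 264 and 244 CPM in control. It was at 199, 239 and 213 CPM with PFOA, at 217, 239 and 237 with PFOS, and at 220, 210 and 226 with PFDA. Levels with PFDS were 241, 218 and 273 CPM, with 8:2 FTS 230, 211 and 264, and with 8:2 FTOH 220, 238 and 204. The groups did not overlap control with PFOA (log2 fold change -0.22, SE 0.08), PFOS (-0.13, SE 0.08), PFDA (-0.21, SE 0.08) and 8:2 FTOH (-0.20, SE 0.08), and the adjusted p in these was 0.334 to 0.821.

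DNAJB9, or ERdj4, a J-protein whose gene is a known target of spliced XBP1, did not share these values. It was at 25.1, 27.1 and 26.1 CPM in control and at 21.3 to 30.8 CPM over the 18 compound libraries, with a log2 fold change of 0.00 for the 6 compounds (SE 0.08, adjusted p = 0.993). By group it was at 24.5, 30.8 and 26.6 CPM with PFOA, at 25.7, 25.1 and 28.9 with PFOS, and at 22.8, 24.7 and 26.3 with PFDA. With PFDS it was at 28.4, 28.3 and 28.4 CPM, with 8:2 FTS at 25.3, 21.3 and 26.7, and with 8:2 FTOH at 26.5, 22.6 and 26.2. The PFDS libraries alone did not overlap control, and they lay above it. DNAJC3, the co-chaperone p58IPK, was between -0.25 and -0.10 in the 6 comparisons. SDF2L1, a partner of DNAJB11, was between -0.41 and -0.03 at only 9.81 CPM in control, and the secreted ER protein gene CRELD2 was between -0.48 and -0.03. CRELD2 was also uneven among the controls, at 23.5, 26.4 and 17.6 CPM.

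**Figure D2:**
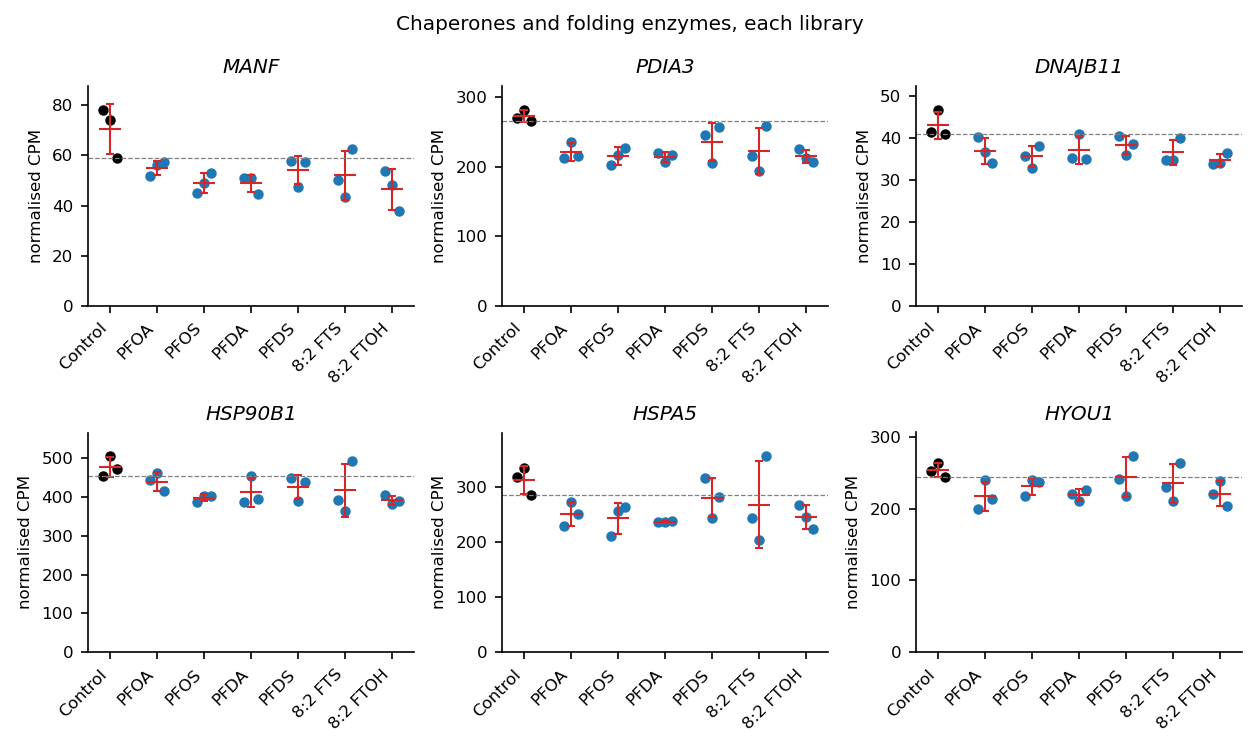
Level of 6 chaperones and folding enzymes in each of the 21 libraries, in TMM-scaled CPM on axes that start at 0, with dots for libraries, red marks for the group mean ± SD (n = 3) and a dashed line at the lowest control library. For PDIA3 and DNAJB11 the 18 compound libraries sit below the line, and for MANF 17 do.

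Of the lectin chaperones, CALR was at 372, 390 and 302 CPM in control and had log2 fold changes of -0.38 with PFOA, -0.31 with PFOS, -0.37 with PFDA, -0.13 with PFDS, -0.21 with 8:2 FTS and -0.24 with 8:2 FTOH (SE 0.15 in each, adjusted p from 0.415 to 0.988). CANX, its membrane-bound relative, was between -0.14 and 0.03. Among the disulfide enzymes PDIA4 was between -0.24 and -0.14 and PDIA6 between -0.20 and -0.09. P4HB, the founding protein disulfide isomerase, was between -0.20 and 0.01. ERO1A and ERO1B, which reoxidise these isomerases, were between -0.09 and 0.01 and between 0.01 and 0.16. PDIA6 shares 25.2% of its exonic length with ATP6V1C2 (6.17 CPM in control), so part of its value is uncertain.

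The sensors and their factors showed no common direction. ERN1 lay above control with all 6 compounds, at log2 fold changes of 0.04 with PFOA, 0.24 with PFOS, 0.13 with PFDA, 0.20 with PFDS, 0.17 with 8:2 FTS and 0.28 with 8:2 FTOH (SE 0.10 in each, adjusted p from 0.423 to 0.933). It was at 27.8, 30.6 and 34 CPM in control and at 30.2 to 39.9 CPM over the compound libraries. The groups did not overlap control with PFOS (36.6, 38.6 and 34 CPM, the last above the highest control by less than the rounding) and 8:2 FTOH (37.1, 37.4 and 38.1 CPM). The other groups were at 31.5, 30.2 and 33.3 CPM with PFOA, 31.8, 36.3 and 33.6 with PFDA, 31.1, 34.2 and 39.9 with PFDS, and 34.6, 38.6 and 30.8 with 8:2 FTS. EIF2AK3 was at 40.2, 36.2 and 39.3 CPM in control and at 35.5 to 42.4 CPM with the compounds, with log2 fold changes between -0.04 and 0.12. The 8:2 FTOH libraries, at 42.3, 42 and 41 CPM, lay above the controls.

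ATF6 was at 93.7, 96.5 and 109 CPM in control and at 80.4 to 108 CPM with the compounds. By group it was at 94.7, 97.9 and 89.4 CPM with PFOA, at 92.6, 95.4 and 100 with PFOS, and at 87.0, 80.4 and 102 with PFDA. The PFDS libraries were at 104, 90.4 and 106 CPM, those of 8:2 FTS at 89.9, 86.6 and 93.8, and those of 8:2 FTOH at 108, 98.6 and 101. Every compound group overlapped control, and the log2 fold changes lay between -0.15 and 0.04. XBP1 was at 73.5, 91.8 and 80.5 CPM in control and at 72.7 to 99.6 CPM with the compounds. It was at 75.7, 81.0 and 74.0 CPM with PFOA, at 79.3, 87.3 and 80.9 with PFOS, and at 72.7, 82.9 and 83.8 with PFDA. Levels with PFDS were 77.8, 74.0 and 89.7 CPM, with 8:2 FTS 86.8, 76.4 and 99.6, and with 8:2 FTOH 91.6, 84.1 and 84. The highest XBP1 level was again in 8:2 FTS replicate 3, no group stood clear of control, and the difference for the 6 compounds was 0.00 (95% interval -0.13 to 0.14). The proteases MBTPS1 and MBTPS2 were between -0.04 and 0.07, and CREB3L2, an ATF6-like factor held in the ER membrane, between -0.12 and 0.08.

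**Figure D3:**
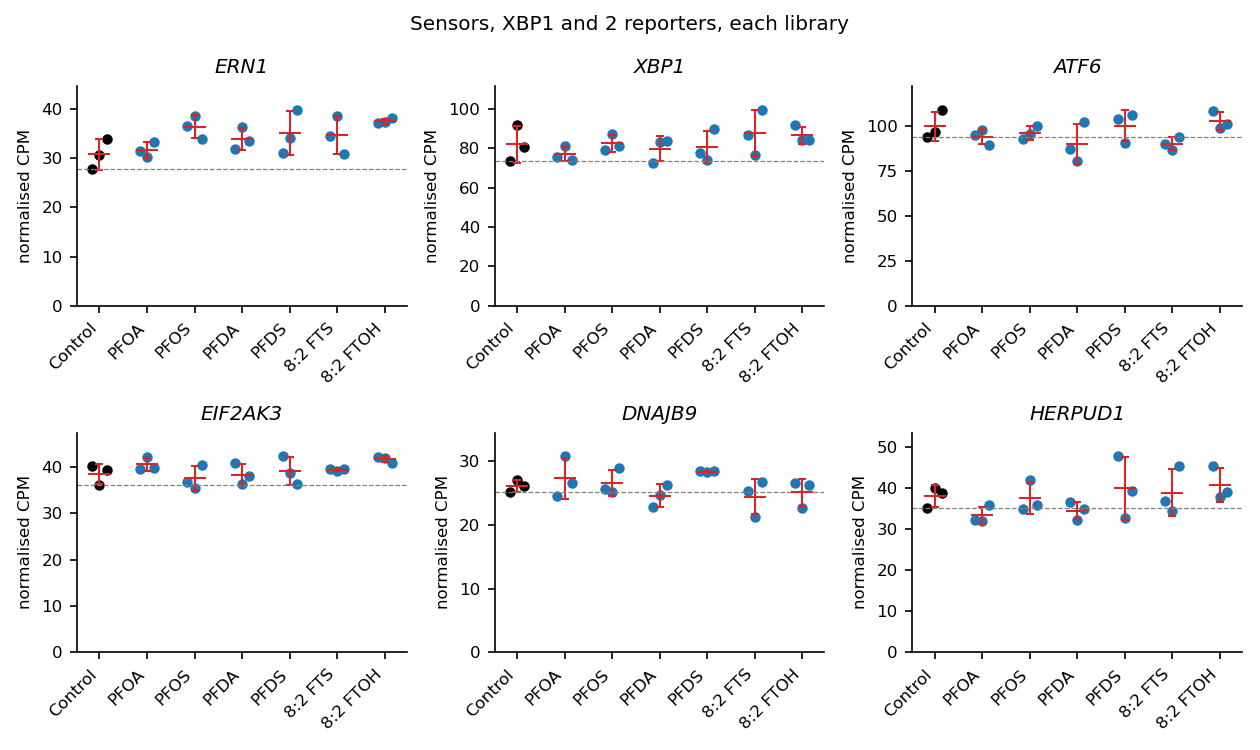
Level of the 3 sensors ERN1, ATF6 and EIF2AK3, of XBP1, and of DNAJB9 and HERPUD1 in each of the 21 libraries, in TMM-scaled CPM on axes that start at 0, with dots for libraries, red marks for the group mean ± SD (n = 3) and a dashed line at the lowest control library. ERN1 with PFOS and 8:2 FTOH sits above the controls, and XBP1 and ATF6 overlap them in every group.

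Most of the ERAD genes lay close to control. HERPUD1, a membrane adaptor of the ERAD complex that all branches are known to raise, was at 35.1, 40.1 and 38.9 CPM in control. It was at 32.3, 32.1 and 35.8 CPM with PFOA, at 34.8, 41.9 and 35.9 with PFOS, and at 36.5, 32.3 and 34.8 with PFDA. With PFDS it was at 47.8, 32.6 and 39.4 CPM, with 8:2 FTS at 36.8, 34.5 and 45.4, and with 8:2 FTOH at 45.4, 37.8 and 39. All groups overlapped control, with log2 fold changes between -0.18 and 0.10. The ubiquitin ligase gene SYVN1 and its partner SEL1L were between -0.18 and 0.08 and between -0.11 and 0.04, and the mannosidase-like EDEM1 was between 0.04 and 0.17. DERL1 and DERL2 were between -0.08 and 0.08 and between -0.04 and 0.16. The selenoprotein genes SELENOS and SELENOK were between -0.02 and 0.09 and between -0.18 and 0.05. OS9, a lectin that reads trimmed sugar chains on misfolded proteins, was the ERAD gene with the smallest p, between -0.20 and -0.12 (for the 6 compounds -0.15, SE 0.06, adjusted p = 0.306), and it shares 8.6% of its exonic length with AGAP2 (107 CPM in control). For OS9, 16 of 18 compound libraries lay below the lowest control, and with 4 compounds all libraries did. DERL3 was between 0.34 and 0.74 with an SE of 0.47 or 0.48. The translocon subunit SEC61B was between -0.17 and 0.00 and the COPII coat gene SEC24D between -0.11 and -0.03.

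**Figure D4:**
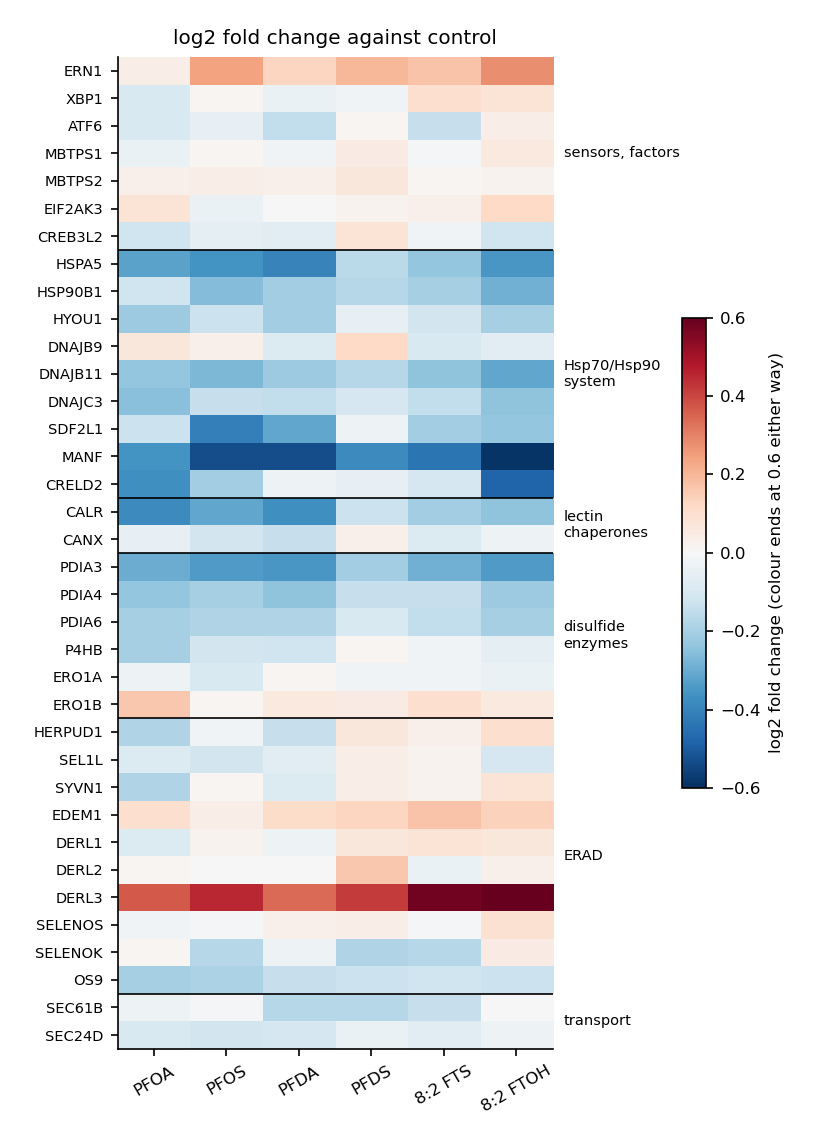
Log2 fold change of the 36 genes (rows, by role) with each of the 6 compounds against control (columns, which share the control libraries), blue where lower and red where higher, with the colour ending at 0.6 either way. MANF and PDIA3 are blue and ERN1 is red in all 6 columns, and only DERL3 with 8:2 FTOH (0.74) lies beyond the colour scale.

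Counted by libraries that do not overlap, 13 of the 36 genes lay wholly below control with PFOA, 10 with PFOS, 12 with PFDA, 4 with PFDS, 2 with 8:2 FTS and 9 with 8:2 FTOH. Among all genes tested the shares were 8.46%, 7.41%, 7.85%, 4.53%, 7.17% and 6.98%. Wholly above control lay 0, 2, 0, 2, 0 and 2 of the 36, against 7.45%, 6.62%, 7.92%, 3.72%, 6.64% and 5.95% of all genes. The log2 fold change was negative in 27, 25, 28, 18, 25 and 21 of the 36, against 48.2%, 48.4%, 48.5%, 49.5%, 48.4% and 49.3% of all genes. Over the 36 genes the median log2 fold change was -0.09 with PFOA, -0.10 with PFOS, -0.09 with PFDA, -0.01 with PFDS, -0.07 with 8:2 FTS and -0.04 with 8:2 FTOH. Libraries of a group differed in rank over these genes. The library 8:2 FTS replicate 3 was the highest of its group in 31 of the 36 genes and 8:2 FTS replicate 2 the lowest in 26, PFDS replicate 2 was the lowest in 24, and in each other group the library most often highest was so in 17 to 22 genes. Without 8:2 FTS replicate 3 the count called with 8:2 FTS was 2 (MANF at -0.59, SE 0.12, and PDIA3 at -0.41, SE 0.09, both with an adjusted p of 0.0368). The share of all genes called without that library is not given here.

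Marker levels of cell state also differed between control and the compounds. The 13 neuronal markers summed to 10472 to 10707 CPM in control, against 8262 to 9808 with PFOA, 8966 to 9669 with PFOS, 9046 to 9503 with PFDA, 8740 to 10942 with PFDS, 8668 to 9724 with 8:2 FTS and 8811 to 9450 with 8:2 FTOH, and for the 6 compounds together edgeR called 3 of the 13 lower (0.35% of all genes in either direction) and DESeq2 called 4, GAP43, MAP1B, NEFM and SYP (0.788%). The 5 cell cycle markers summed to 1704 to 1821 CPM in control against 1535 to 1676 with PFOA, 1470 to 1557 with PFOS, 1513 to 1617 with PFDA, 1549 to 1857 with PFDS, 1428 to 1617 with 8:2 FTS and 1461 to 1658 with 8:2 FTOH. In all groups but PFDS the sum lay wholly below control, and for the 6 compounds together edgeR called 0 of the 5 (2 lower with an unadjusted p under 0.05) and DESeq2 called 1, MKI67. These sums rest mostly on a few genes. In control MAP1B was at 5404 CPM among the neuronal markers, and MKI67 at 856 and TOP2A at 547 CPM among the cell cycle markers. The part of cell state in the levels of MANF, PDIA3 and the other chaperones was not tested. Fewer cells of a type and less RNA per cell cannot be told apart in such bulk libraries.

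The branches of the unfolded protein response were then read by lists of their known targets, several of which answer to more than one branch. The 15 ATF6 targets, all among the 36 genes, had medians of -0.20 with PFOA, -0.20 with PFOS, -0.21 with PFDA, -0.05 with PFDS, -0.14 with 8:2 FTS and -0.22 with 8:2 FTOH. In these comparisons 14, 13, 14, 11, 11 and 12 of the 15 had a negative log2 fold change. Only 1 of the 15, MANF, passed the edgeR test for the 6 compounds together (0.35% of all genes). DESeq2 called MANF with PFOS, PFDA and 8:2 FTOH and for the 6 together, and no other gene of this list. For the 6 together HSPA5, HSP90B1, HYOU1, PDIA4, PDIA6, CALR and DNAJB11 were also lower with an unadjusted p under 0.05 by edgeR (5.67% of all genes). None of the list was higher at that level (4.3%). The 18 XBP1 targets had medians of -0.05, 0.01, -0.06, 0.04, -0.02 and 0.02 in the same order of compounds, and edgeR called 0. With an unadjusted p under 0.05, 2 were lower with PFOA (5.6% of all genes), 2 with 8:2 FTOH (4.28%) and 0 with the other compounds (3.03% to 4.39%). At that level 0 were higher with any compound (2.56% to 4.46% of all genes). For the 6 together 1 was lower (5.67% of all genes) and 0 were higher (4.3%). DESeq2 also called 0. Of the genes of this list outside the 36, the smallest p belonged to the translocon helper SEC63 (-0.09, SE 0.05, adjusted p = 0.627) and the disulfide isomerase PDIA5 (0.14, SE 0.11, adjusted p = 0.725).

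The PERK targets, none of them among the 36 genes, had medians above control. Of 16 listed, 15 were tested, and their medians were 0.08 with PFOA, 0.24 with PFOS, 0.06 with PFDA, 0.13 with PFDS, 0.19 with 8:2 FTS and 0.28 with 8:2 FTOH. edgeR called 0 with any compound or for the 6 together. DESeq2 called 1 gene with 8:2 FTOH, SLC3A2 (0.237% of all genes), and 1 for the 6 together, STC2 (0.788%). With an unadjusted p under 0.05, 1, 10, 0, 3, 7 and 10 were higher, against 4.46%, 3.26%, 4.04%, 2.56%, 3.57% and 3.55% of all genes. STC2, a secreted glycoprotein hormone, was at 8.44, 14.3 and 17.2 CPM in control and had a log2 fold change of 0.47 for the 6 compounds (SE 0.13, adjusted p = 0.124). ASNS, the enzyme of asparagine synthesis, was at 12.7, 13.6 and 17.8 CPM in control and at 0.34 (SE 0.10, adjusted p = 0.166). In both genes the controls spread widely, and Control replicate 1 was lowest. The factor ATF4, named after its values were seen, was at -0.02 (SE 0.06) and the factor DDIT3, also known as CHOP, at 0.19 (SE 0.16). PERK is one of several kinases that act through ATF4, and these genes answer to amino acid shortage as well.

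**Figure D5:**
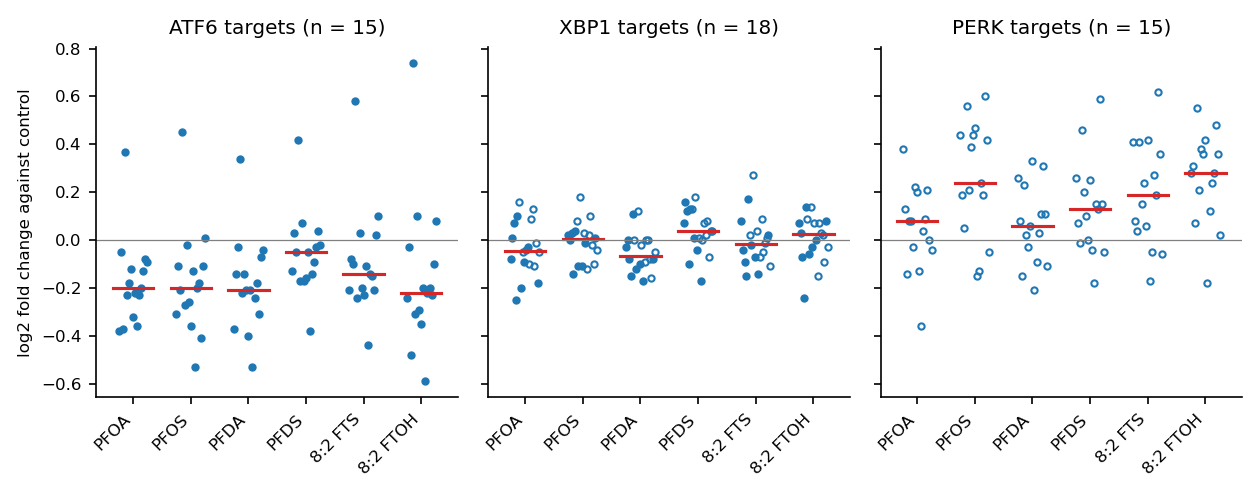
Log2 fold change against control of the listed targets of ATF6 (15 genes), XBP1 (18) and PERK (15) for each compound, with filled dots for genes among the 36, open dots for others and red lines for medians. The medians lie between -0.22 and -0.05 for ATF6 targets, between -0.06 and 0.04 for XBP1 targets and between 0.06 and 0.28 for PERK targets.

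Other gene lists of the ER had medians near control, and edgeR called 0 in any comparison with control. For the 6 compounds together the counts with an unadjusted p under 0.05 were 2, 0, 2, 3, 1, 0 and 0 in the lists below, all lower, against 5.67% of all genes lower and 4.3% higher. DESeq2 called 1 gene in these lists, the ERAD gene NPLOC4, with 8:2 FTOH only, and 0 for the 6 together. The medians for the 6 compounds together were -0.01 for 26 further chaperones and folding enzymes, -0.01 for 24 further ERAD genes, -0.05 for 18 further sensors and regulators, -0.06 for 21 translocon and signal peptide genes, -0.01 for 21 N-glycosylation genes, -0.04 for 18 COPII coat and cargo genes and 0.00 for 6 ER-phagy genes. The smallest p in each list belonged to the prolyl isomerase PPIB (-0.19, SE 0.07), the ERAD relative SEL1L3 (-0.20, SE 0.11), NFYB (-0.23, SE 0.08), SEC11C (-0.24, SE 0.07), OST4 (-0.16, SE 0.07), the KDEL receptor KDELR1 (-0.14, SE 0.07) and ATL3 (-0.10, SE 0.07). NFYB encodes a subunit of NF-Y, the factor that reads the CCAAT part of ERSE, and SEC11C a subunit of the signal peptidase. The adjusted p of these 7 ran from 0.171 for SEC11C to 0.674 for ATL3. The next in each list were ERP29 (-0.14, SE 0.07), RNF5 (-0.12, SE 0.09), NFYA (-0.12, SE 0.06), SSR4 (-0.19, SE 0.06), ALG11 (0.11, SE 0.07), TMED2 (-0.11, SE 0.06) and RTN3 (-0.08, SE 0.06).

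Read against the promoter windows, the 10 genes with ERSE or ERSE-II had a median log2 fold change of -0.18 for the 6 compounds, between -0.30 and 0.07, and the 22 without had -0.05, between -0.47 and 0.18. PDIA3, with no window, is in neither set. The 17 other tested genes with such a match had a median of -0.01. HSPA5 (-0.30), HSP90B1 (-0.21) and HYOU1 (-0.15) hold matches and lay below control, HERPUD1 (-0.03) and XBP1 (0.00) hold matches and lay at control, and MANF (-0.47), with the lowest value of the 36, holds none in the window shown.

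Related compounds were compared with each other at the same concentration and time in 7 pairs. The control libraries are no part of these contrasts but enter the fit, and so the spread behind the p-values and intervals. No gene of the 36 was called in any pair by edgeR (adjusted over all genes of the 7 pairs together, each p was 1), and DESeq2 called none either. Among all genes 0.00402% were called for PFDS against PFOS and 0% in the other 6 pairs. With an unadjusted p under 0.05 the count of the 36 was 1 each for PFDS against PFDA, 8:2 FTS against 8:2 FTOH and 8:2 FTS against PFDS, and 0 in the other 4 pairs. The shares of all genes at that level were 5.59% for PFDS against PFDA, 3.26% for 8:2 FTS against 8:2 FTOH, 4.1% for 8:2 FTS against PFDS, 2.93% for PFDA against PFOA, 4.37% for PFDS against PFOS, 4.9% for PFOS against PFOA and 2.86% for 8:2 FTS against PFOS. With chain length in the carboxylic acids, PFDA against PFOA, the smallest p belonged to CRELD2 (0.34, 95% interval -0.06 to 0.74) and MANF (-0.18, interval -0.42 to 0.07). In the sulfonic acids, PFDS against PFOS, they were SEL1L (0.15, interval -0.01 to 0.30) and CREB3L2 (0.14, interval -0.01 to 0.30), and MANF differed by 0.15 (interval -0.09 to 0.39).

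For the acid group at the shorter chain, PFOS against PFOA, the smallest p belonged to ERN1 (0.20, interval -0.01 to 0.40) and SYVN1 (0.19, interval -0.02 to 0.40). At the longer chain, PFDS against PFDA, they were CANX (0.17, interval 0.01 to 0.33) and CREB3L2 (0.16, interval 0.00 to 0.31), and HSPA5 differed by 0.25 (interval -0.09 to 0.58). Of the fluorotelomers, 8:2 FTS against 8:2 FTOH, ATF6 had the smallest p (-0.19, interval -0.35 to -0.02, unadjusted p = 0.0293 by edgeR), and SELENOK was at -0.22 (interval -0.45 to 0.00). For 8:2 FTS against PFOS they were SEL1L (0.13, interval -0.03 to 0.29) and EDEM1 (0.12, interval -0.05 to 0.30), and for 8:2 FTS against PFDS, DERL2 (-0.21, interval -0.40 to -0.02) and DNAJB9 (-0.22, interval -0.44 to 0.01). For MANF the intervals of the 7 pairs reached from -0.42 to 0.40, so the data leave room for differences of that size between compounds, and a p that misses the threshold does not show that the compounds act alike.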

How the data were processed

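RNA from 21 libraries in 7 groups of 3 was sequenced in bulk. The deposited values are raw counts of reads per gene, made by featureCounts 2.0.1 per the file headers, without strand, multi-mapping or multi-overlap options. The submitters' processing notes name HISAT2, hg38, SAMtools, FastQC, MultiQC and DESeq2; the annotation release is not given in the sources used here. Reads from overlapping or antisense genes could not be told apart. The exonic length per gene came from the same deposited table. A normalized table that covers 19 of the 21 libraries was not used here.

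The 24879 genes that passed edgeR's filterByExpr, of 62656, were TMM-scaled and fitted over all 21 libraries with the quasi-likelihood test of edgeR 4.0.16 (R 4.3.3, robust), with Benjamini-Hochberg adjustment within each comparison at 0.05. DESeq2 1.42.0 was an alternative, beside other scalings, filters, sample sets, a replicate block and leaving out each library. Leaving out Control replicate 3 and 8:2 FTOH replicate 3 together was chosen after seeing the data. The fit was tested on simulated data. The 36 genes and all lists were chosen with earlier results of these data known. Per-library values were given for ERN1, XBP1, ATF6, EIF2AK3, HSPA5, DNAJB9, HERPUD1 and the 3 genes with the smallest p in each comparison with control; in other lists the 2 genes with the smallest p were named. Promoter windows came from RefSeq (GRCh38.p14); protein sequences were not used here.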

Additional observations from a re-analysis of the deposited data

How the results depend on the processing

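For 21 results on single genes, 336 values were recomputed under other settings: 298 kept their direction and side of the threshold, 34 passed it newly, 4 lost it and 0 reversed. These results were the 3 genes with the smallest p in each comparison with control. Only MANF and PDIA3 for the 6 compounds together were called in the main fit, so only they could lose the threshold. The number that kept their side is thus no measure of how stable the calls are. Of the 36 genes, the number called without a filter on low counts was 2 with PFOA, 2 with PFOS, 2 with PFDA, 1 with PFDS, 2 with 8:2 FTS and 4 with 8:2 FTOH, against 0 with it (0.351%, 0.113%, 0.148%, 0.188%, 0.275% and 0.233% of all genes). With only the groups compared in the fit it was 1 with PFOA, 3 with PFOS, 4 with PFDA and 1 with 8:2 FTOH (0.337%, 0.197%, 0.243% and 0.127% of all genes), and with DESeq2 1 with PFOS, 1 with PFDA and 2 with 8:2 FTOH (0.0683%, 0.0482% and 0.237%). Without Control replicate 3 and 8:2 FTOH replicate 3 it was 1 for each of the 6 compounds (0.0391% to 0.661% of all genes). The cause of these moves was not tested. Leaving out 1 library in turn gave 0 to 1 with PFOS, PFDA and 8:2 FTOH, 0 to 2 with 8:2 FTS, and 0 to 4 for the 6 compounds together. The share of all genes called in each of these settings is not given here, so these counts have no background beside them. The 0 came without Control replicate 1 or 2 and the 4 without 8:2 FTS replicate 3. The single-compound calls came without Control replicate 3 (PFOS, PFDA, 8:2 FTS, 8:2 FTOH), 8:2 FTS replicate 3 or 8:2 FTOH replicate 1. With library size scaling the median log2 fold change of the 36 genes was -0.02 with PFOA, -0.05 with PFOS, -0.03 with PFDA, 0.02 with PFDS, -0.02 with 8:2 FTS and 0.01 with 8:2 FTOH, while that of all genes was 0.08, 0.05, 0.07, 0.03, 0.06 and 0.05, against 0.00 or 0.01 with TMM. Leaving out 1 library gave medians of -0.13 to -0.08 with PFOA (-0.13 without PFOA replicate 2), -0.11 to -0.07 with PFOS, -0.12 to -0.07 with PFDA, -0.04 to 0.05 with PFDS (0.05, a change of sign, without PFDS replicate 2), -0.14 to -0.01 with 8:2 FTS (-0.14 without replicate 3, -0.01 without replicate 2) and -0.08 to -0.01 with 8:2 FTOH (-0.08 without replicate 1, -0.01 without replicate 2). For the 6 compounds together the genes called among all tested were 87 by edgeR, 196 by DESeq2, 286 without the filter and 54 with library size scaling. With the replicate number as a block, 2 of the 36 were called for the 6 compounds together and 0 for each single compound. The share of all genes called with the block is not given here either. Of 63 same-numbered pairs of libraries, 6 had deviations correlated over 0.1 (-0.227 to 0.227), and 8 of 21 libraries were closest to their own number. Whether same-numbered libraries share more than a number cannot be told from these correlations. With 3 libraries a group, small differences in genes of few reads, such as DERL3, were not detectable at this depth.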
